A study of Mus musculus with 36 samples.

Results

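Whole-genome bisulfite sequencing of mouse liver was used to find 500-bp windows whose DNA methylation differed most between animals that were the same in strain, sex and parental role. The windows were fixed tiles of the autosomes with at least 5 CpGs and at least 50 counts in each of 24 animals, and 1407930 windows met both conditions. In each window the standard deviation (SD) of percent methylation was taken within each of the 4 parental groups and pooled, as the root of the mean of the 4 variances. The 1407 windows in the highest 0.1% by this parental SD are described here and are called variable windows. Because they were chosen by the parental SD, their spread among the 12 parents is a description and was not tested. The 12 F1 animals had no part in the choice beyond the count minimum.

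The parental groups were sires of strain C57BL/6N (B6_M), dams of C57BL/6N (B6_F), sires of C3H/HeN (C3_M) and dams of C3H/HeN (C3_F), with 3 animals in each group. Both strains are inbred, so animals within a group share their genome apart from new mutations. The F1 groups, also of 3 animals, were sons and daughters of a C57BL/6N dam and a C3H/HeN sire (B6C3F1_M, B6C3F1_F) and of the reciprocal cross (C3B6F1_M, C3B6F1_F). All animals were 20 weeks old, no group received a treatment, and parents had been mated at week 10 and separated from their pups at week 16. The dams had therefore borne pups and the F1 daughters were virgin, so that in dams against daughters pregnancy, generation and genotype cannot be told apart. Each cross was made in 3 families, and the sample labels do not tie a replicate number to a family. Bulk liver mixes cell types, so a change in the share of a cell type and a change of methylation within cells cannot be told apart. Around the start sites of 8 hepatocyte marker genes median methylation was 30.8%, against 80.7% for 6 leukocyte and 81.8% for 5 Kupffer cell genes. It was 68.2% for 5 endothelial genes, of which Kdr had 4.80%, and close to or below the hepatocyte value for 3 stellate cell genes (32.8%) and 3 cholangiocyte genes (16.8%), so this check does not tell those cell types from hepatocytes.

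DNA methylation in mammals is found mostly on the cytosine of CpG dinucleotides. It is copied onto the new strand at replication by the maintenance enzyme Dnmt1, and cells of one tissue normally share a pattern that differs little between genetically identical animals. Known exceptions are metastable epialleles, loci set to different levels in different individuals of an inbred strain and then kept in all their tissues. Several of them in C57BL/6 mice belong to retrotransposons of the intracisternal A-particle (IAP) class, of which the agouti viable yellow allele is the textbook case.

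The sequence of 4 variable windows is shown first, because the results turn on them. The window in Cdk5rap1 had the highest parental SD of all windows, the one nearest to Pln the highest F1 SD of the variable windows, the one in Actr3b the third rank among deeply covered loci, and the one in Socs5 the most CpGs of those chosen for a high F1 SD. Each line gives 300 bases of mm9 on the plus strand, 5′ to 3′, around the densest CpGs of the window, with every CG in capitals.
Cdk5rap1 (chr2:154179637-154179936): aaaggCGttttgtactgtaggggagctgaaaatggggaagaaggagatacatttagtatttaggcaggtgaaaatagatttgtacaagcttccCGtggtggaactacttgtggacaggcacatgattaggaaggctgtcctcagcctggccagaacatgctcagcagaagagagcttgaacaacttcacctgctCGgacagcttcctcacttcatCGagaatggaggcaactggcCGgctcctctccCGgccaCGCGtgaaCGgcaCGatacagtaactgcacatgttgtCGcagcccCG
nearest to Pln (chr10:52965113-52965412): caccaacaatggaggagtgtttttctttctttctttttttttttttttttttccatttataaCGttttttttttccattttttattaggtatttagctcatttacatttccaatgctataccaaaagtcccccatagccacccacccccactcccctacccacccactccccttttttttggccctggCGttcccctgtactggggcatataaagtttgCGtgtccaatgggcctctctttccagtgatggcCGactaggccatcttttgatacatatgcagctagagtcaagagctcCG
Actr3b (chr5:25274615-25274914): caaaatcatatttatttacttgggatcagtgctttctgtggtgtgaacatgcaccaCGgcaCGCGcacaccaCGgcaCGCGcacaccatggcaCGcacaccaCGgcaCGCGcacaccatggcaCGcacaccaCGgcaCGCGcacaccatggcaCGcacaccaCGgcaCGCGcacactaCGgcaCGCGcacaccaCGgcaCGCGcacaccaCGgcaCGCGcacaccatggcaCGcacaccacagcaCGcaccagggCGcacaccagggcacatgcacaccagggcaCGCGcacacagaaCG
Socs5 (chr17:87524672-87524971): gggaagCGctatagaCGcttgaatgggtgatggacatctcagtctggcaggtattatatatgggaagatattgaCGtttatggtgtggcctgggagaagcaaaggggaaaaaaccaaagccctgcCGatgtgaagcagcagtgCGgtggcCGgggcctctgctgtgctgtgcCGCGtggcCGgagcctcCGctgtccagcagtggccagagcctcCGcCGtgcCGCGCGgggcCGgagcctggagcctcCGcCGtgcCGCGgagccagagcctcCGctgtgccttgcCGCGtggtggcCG
The Cdk5rap1 stretch holds 12 CpGs and runs from an intron into an exon that starts at 154179826. The stretch nearest to Pln holds 5 CpGs, lies outside annotated genes, and its first CG stands before a run of T. The Actr3b stretch is mostly a tandem repeat in an intron, and of its 33 CG dinucleotides 14 are CpGs of the deposited table. The Socs5 stretch is intronic and holds 24 CpGs.

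Among the variable windows the parental SD ran from 8.48 to 21.2 percentage points with a median of 9.11, against a median of 2.55 over all windows. The limit cut through a continuum. The lowest window inside had 8.4785 points and the highest window outside 8.47745, with 160 windows within 0.1 points above the limit and 180 within 0.1 points below it. Intermediate methylation was the rule, as 1322 windows (94%) lay between 20 and 80% against 28.2% of all windows, and the median level was 52.7% against 85.8%. The variable windows were also covered more thinly, with a median of 20.5 counts per CpG against 29.2. In the animal with the fewest counts the median was 11.4 against 18.0 counts per CpG. Every one of the 1407 windows entered the tests below, since no filter beyond the 50 counts was applied.

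Counting error was set beside these SDs in both extreme forms. If each CpG count were independent, counting alone would give the median variable window an SD of 4.05 points in the parents. If instead every read covered all CpGs of the window in one state, it would give 10.7 points. The parental SD exceeded the second, stricter value in 315 variable windows (22.4%), a count that the choice on the parental SD raises and from which nothing is read.

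The F1 animals, which had no part in the choice, were also more spread in these windows. Their SD had a median of 5.86 points in the variable windows and 2.56 points over all windows. Of the 1407 variable windows, 162 (11.5%) were in the highest 0.1% of windows by F1 SD, where the background is 0.0999%. In the highest 1%, with a background of 1%, were 474 (33.7%), and in the highest 5%, with a background of 5%, were 884 (62.8%). The F1 SD exceeded the stricter counting SD in 54 windows (3.84%), against 0.065% of all windows. The spread of parents lay above that of F1 animals in 1315 windows (93.5%), an order that the choice on the parental SD favours.

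**Figure D1:**
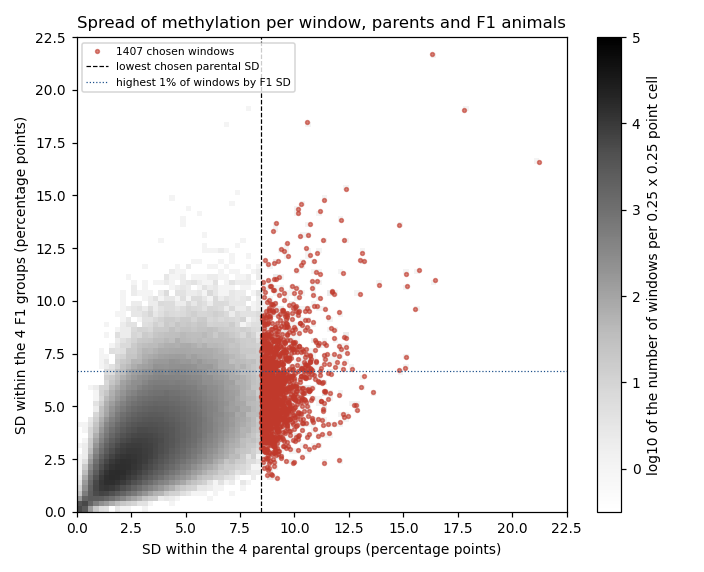
Each window's SD of percent methylation within the 4 parental groups (x axis, percentage points) and within the 4 F1 groups (y axis). Grey shading counts all 1407930 windows on a log10 scale and red points are the 1407 variable windows, which lie right of the dashed limit by choice, 474 of them above the dotted line at the highest 1% of windows by F1 SD.

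Level and depth moved with this result. Among windows of 20 to 80% methylation with at least 10 counts per CpG in every animal, 263 of 897 variable windows (29.3%) were in the highest 1% by F1 SD, against 2.87% of all 380612 windows of that kind. Where some animal had fewer than 10 counts per CpG the shares were 45.2% of 425 variable windows and 13.1% of 16899 windows. When the variable windows were put in 4 parts by parental SD, the share in the highest 1% by F1 SD was 48.9%, 31.0%, 29.3% and 25.6% from the highest part to the lowest. The share also differed by CpG content. It was 28.2% among 797 windows of 5 to 7 CpGs (1.09% of all windows of that kind) and 56.5% among 177 windows of 15 or more CpGs (1.06%). The 71 windows with the base composition of a CpG island (at least 50% GC and an observed over expected CpG ratio of at least 0.6) had 57.7% (0.929%).

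Neighbouring CpGs of a variable window tended to deviate together. In the F1 animals the deviation of each animal from its group mean was correlated between odd-numbered and even-numbered CpGs of the window. The median r over 12 animals was 0.63 in the variable windows and 0.21 over all windows, and r was 0.5 or more in 880 variable windows (62.5%), where the background is 23.1% of all windows and 32.2% of those of 20 to 80% methylation. Adjacent CpGs share reads, which raises this r. Between the outermost parts of the window, with the CpGs split into 3 runs and the middle one left out, r was 0.5 or more in 250 variable windows (17.8%) with a background of 9.68% of all windows and 10.2% of those of 20 to 80%, and the median r was 0.13 against 0.02. All these r are over animals of the same 12 libraries and are given as a description.

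The agreement reached little beyond the window. Deviations of F1 animals in a variable window and in a window 500 bp away had a median r of 0.17, against 0.042 for all pairs of windows at that distance. At 1000 bp the medians were 0.053 and 0.013, and at 5000 bp 0.016 and 0.0084. In the parents the variable windows had a median r of 0.22 at 500 bp and 0.018 at 5000 bp. With windows within 5 kb of each other joined, the 1407 windows formed 1343 loci, of which 1293 held 1 window, 41 held 2, and 9 held 3 or more.

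**Figure D2:**
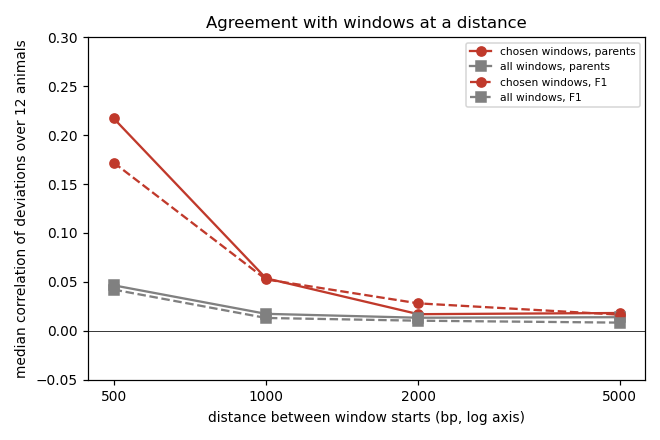
Median correlation, over the 12 parents or the 12 F1 animals, between the deviations from the group mean in a window and in another window at the distance on the x axis (bp, log axis). Red marks pairs that start from a variable window and grey all pairs, and both red lines come close to the grey ones at 2000 bp.

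In position and composition the variable windows were compared with all windows and with windows of 20 to 80% methylation, the range in which most of them lay. Exons held 218 (15.5%, against 14.6% of all windows and 9.82% of those of 20 to 80%). Introns without an exon held 549 (39%, against 37.4 and 35.2%) and intergenic sequence 640 (45.5%, against 48.0 and 55.0%). The composition of a CpG island was found in 5.05% of the variable windows, against 2.25% of all windows and 0.397% of those of 20 to 80%. They lay nearer to start sites of protein-coding transcripts, with 134 (9.52%) within 1 kb of one against 6.19 and 5.98%, and a median distance of 17367 bp against 30107 and 32411 bp. A single-nucleotide variant (SNV) of either strain was present in 335 (23.8%) against 21.6%. For copies in mm9, 3 31-mers of each window were looked up. Windows whose median 31-mer of these 3 occurs 2 or more times numbered 150 (10.7%) against 8.23%. Those where it occurs 100 or more times numbered 47 (3.34%), against 3.62% of all windows and 3.75% of those of 20 to 80%. On single chromosomes the share of windows that were variable ran from 0.0671% on chromosome 16 to 0.145% on chromosome 19.

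No single animal or group made up the set. The group with the highest SD was C3_F in 462 variable windows (32.8%, against 28.2% of all windows), B6_M in 363 (25.8% against 26.0%), C3_M in 336 (23.9% against 22.9%) and B6_F in 246 (17.5% against 22.9%). The parent farthest from its group mean was C3_F_3 most often, in 191 windows (13.6%, against 11.2% of all windows), and B6_F_3 least often, in 72 (5.12% against 7.13%). C3_F_3 also had the lowest depth of the 24 animals, 19.4 counts per autosomal CpG in a range of 19.4 to 32.8 (totals of 365740739 to 619888157 counts), and its part in the choice is given by leaving it out, after which 1014 of the 1407 windows were still in the highest 0.1%. A single parent held at least 50% of the summed squares in 92 windows (6.54%, against 3.68% of all windows). The farthest parent lay above its group mean in 684 windows and below it in the others. B6 parents were more spread than C3 parents in 590 windows (41.9%, against 48.9% of all windows), and dams more than sires in 705 (50.1% against 51.2%).

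**Figure D3:**
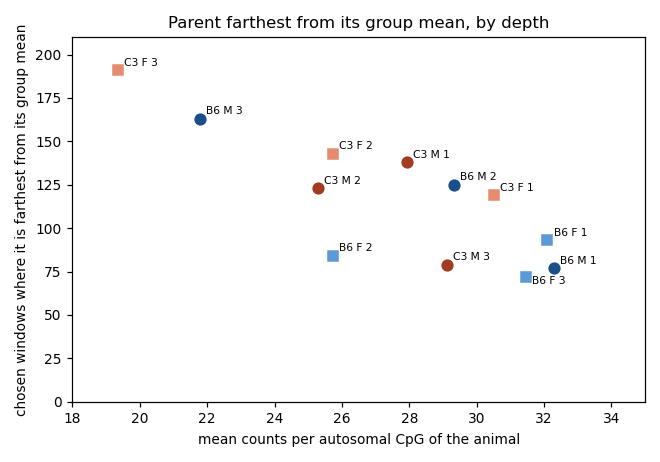
Number of variable windows in which each of the 12 parents was the one farthest from its group mean (y axis) against its mean counts per autosomal CpG (x axis). Circles are sires and squares dams, blue B6 and red C3, and the parents with the fewest counts, C3_F_3 and B6_M_3, have the highest numbers, 191 and 163.

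Single windows are now described, with the values of a group in the order of replicates 1, 2 and 3. The 19 windows were named by a rule on parental SD, F1 SD, nearness to a start site, the difference between parents and F1, and lists of genes, and windows chosen otherwise are marked as such. The highest parental SD, 21.2 points, was in Cdk5rap1 (chr2:154179501-154180000, 15 CpGs, overlapping an exon), which encodes a tRNA-modifying enzyme of mitochondria and has a variably methylated IAP named after it. B6 sires had 28.1, 89.9 and 94.1% methylation and B6 dams 71.2, 55.8 and 97.1%. The 6 C3 parents lay between 93.5 and 95.8%. B6 parents of both sexes were thus spread widely, with 1 sire the lowest, while the C3 parents were all high.

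The crosses differed at Cdk5rap1 in the same assay. B6C3F1 sons had 44.9, 56.5 and 96.4% and B6C3F1 daughters 68.9, 63.1 and 96.1%. C3B6F1 sons had 90.6, 95.2 and 93.8% and C3B6F1 daughters 81.4, 95.5 and 92.2%. The spread was wide where the dam was B6 and narrow, with 1 daughter at 81.4%, where the dam was C3. This difference between crosses was seen in the values and was not tested. The F1 SD was 16.6 points, and the r of odd and even CpGs was 0.99 in the F1 animals. In the lowest animal, the first B6 sire, single CpGs lay between 24.1 and 36.8% and 119 of 424 counts were methylated (28.1%, 95% Wilson interval 24 to 32.5%, for counting error only and as if counts were independent). The window beside it (chr2:154179001-154179500, 6 CpGs) was also among the variable windows, with SDs of 15.1 points in parents and 11.3 points in F1 animals. The B6 mean lay 22.2 points below the C3 mean, which did not pass the test (adjusted p = 0.296, limma).

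**Figure D4:**
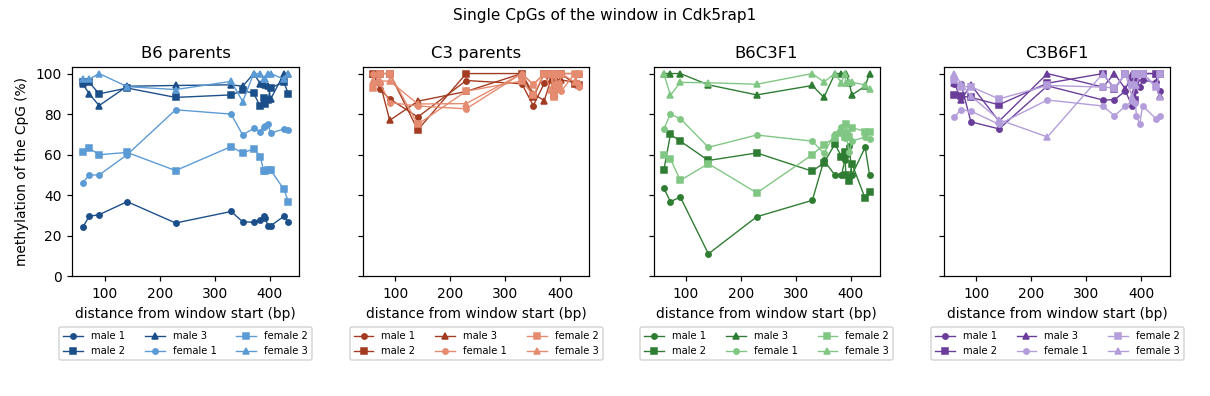
Methylation (y axis, percent) of each of the 15 CpGs of the Cdk5rap1 window by distance from its start (x axis, bp), with 1 line per animal and 1 panel per strain or cross. The first B6 sire stays between 24.1 and 36.8% at every CpG, all C3 lines run high, and among B6C3F1 the third son and the third daughter stay above the other 4 animals, whose lines cross.

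A window with the opposite makeup lay 91992 bp from Pln, the gene of the cardiac calcium regulator phospholamban (chr10:52965001-52965500, 6 CpGs). It had the highest F1 SD of the variable windows, 21.7 points, with 16.3 points in parents. In each of the 8 groups replicate 1 was the lowest animal, with 30.5 to 56.6% over those animals, and replicates 2 and 3 lay between 72.6 and 87.7%. The spread came from 1 CpG, 174 bp from the window start, which is the first CG of the sequence above. At this CpG the replicate 1 animals had 50 to 188 unmethylated counts each and the other animals 4 to 12, with 1 to 7 methylated counts in all. Without this CpG the SDs were 3.43 points in parents and 5.18 points in F1 animals, a value added after the data had been seen. The median 31-mer of the window occurs 8660 times in mm9. Over all variable windows, replicate 1 was the lowest or the highest animal of all 8 groups in 2 windows (0.142%), with a background of 0.0362%, one of them the window just described. The same count was 0 for replicate 2 and 0 for replicate 3, with backgrounds of 0.0356 and 0.0325%. The other window with replicate 1 at an extreme (chr4:135568501-135569000) had replicate 1 highest, at 63.6 to 73.8% against 44.8 to 66.9%.

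In contrast to the Pln window, the other 18 named windows kept a parental SD above 9 points when the CpG that mattered most was left out. Over all variable windows 630 (44.8%) stayed at or above the limit under this omission, and in 7 the SD fell to less than 50% of its value.

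The next loci by parental SD with at least 10 counts per CpG in every animal lay in Actr3b, Bcas3 and Fkbp5. The Actr3b window (chr5:25274501-25275000, 16 CpGs, intron) is in the gene of a subunit of the actin-nucleating Arp2/3 complex and had SDs of 15.6 points in parents and 9.64 points in F1 animals. B6 sires had 76.3, 66.8 and 41.6% there, B6 dams 42.1, 50.2 and 74.5%, C3 sires 31.5, 54.9 and 17.9%, and C3 dams 41.9, 47.2 and 40.6%. Of the F1 animals, B6C3F1 sons had 31.1, 35.6 and 58.5%, B6C3F1 daughters 34.7, 40.3 and 41.3%, C3B6F1 sons 69.6, 78.2 and 58%, and C3B6F1 daughters 59.8, 62.1 and 50.2%. Both B6 groups and the C3 sires were spread widely, C3 dams were not, and the 6 C3B6F1 animals lay above 5 of the 6 B6C3F1 animals with the third B6C3F1 son in their range.

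The Bcas3 window (chr11:85337501-85338000, 10 CpGs, intron) had 15.1 points in parents and 6.84 points in F1 animals. C3 sires had 64.8, 33.5 and 67.7% there, the widest group, and C3 dams 74.5, 56.8 and 62.7%, the narrowest of the parents. The Fkbp5 window (chr17:28632501-28633000, 6 CpGs, intron) is in the gene of a co-chaperone of the glucocorticoid receptor that glucocorticoids induce. It had 14.8 points in parents and 6.74 points in F1 animals, with C3 sires, the widest group, at 33, 70.2 and 58.3% and B6 sires, the narrowest of the parents, at 56.3, 46.5 and 37.9%. In both windows the F1 spread was less than 50% of the parental one, and in both the F1 values lay within the parental range or within 3 points of it. Over all variable windows the 12 F1 values lay within the range of the 12 parents in 900 (64%, against 29.6% of all windows), an order that the choice on the parental SD favours too.

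The remaining windows of this rank were near Neb, in Art3 and near Hfm1. The window 39183 bp from Neb, the gene of a giant muscle protein (chr2:52233501-52234000, 10 CpGs), kept nearly the same spread in the next generation, with 13.2 points in parents and 11.9 points in F1 animals. Parents ranged there from 23.6% in a B6 dam to 78.7% in a C3 dam, and F1 animals from 27.2 to 67.5%. The Art3 window (chr5:92821501-92822000, 26 CpGs) covers a start site of this gene of an ADP-ribosyltransferase family member, and had 13.1 and 12.3 points. B6 parents ranged from 30.4 to 58.8% and C3 parents from 46.0 to 72.0%, and the B6 mean was 21.2 points lower (adjusted p = 0.033, limma). The window 73941 bp from Hfm1 (chr5:107244501-107245000, 13 CpGs) had 13.1 points in parents but 5.91 points in F1 animals, with 1 B6 dam at 39.6% and the other parents between 57.0 and 90.5%.

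**Figure D5:**
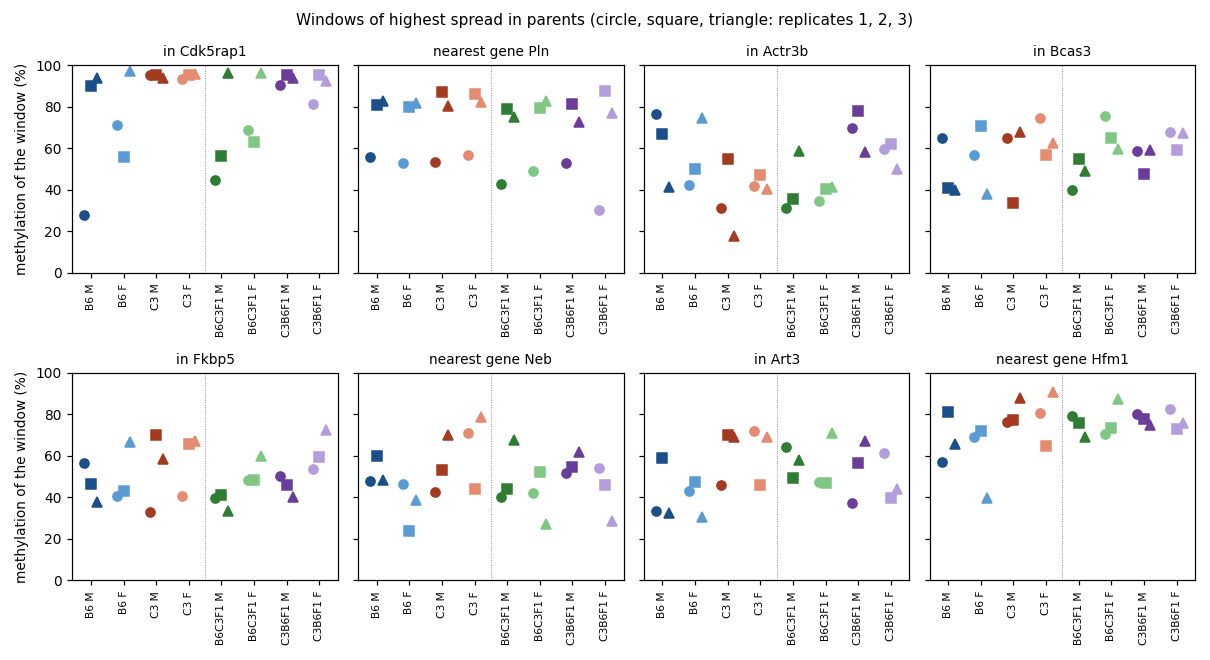
Methylation (y axis, percent) in the 24 animals, by group (x axis), for the 8 loci of highest parental SD with at least 10 counts per CpG in every animal. Circle, square and triangle are replicates 1, 2 and 3, parents are left of the dotted line and F1 animals right of it, and replicate 1 is the lowest animal of every group in the window nearest to Pln.

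Of the windows within 1 kb of a start site, Cxcl17, Eps8l1, Tmem223 and Pkp4 led with Art3. The window 96 bp from Cxcl17, the gene of a mucosal chemokine (chr7:26198001-26198500, 5 CpGs), had SDs of 12.4 points in parents and 7.51 points in F1 animals, with C3 sires, the widest group, at 47.6, 81.7 and 68.0% and SDs of 7.39 and 8.24 points in B6 sires and dams. The Tmem223 window (chr19:8845501-8846000, 27 CpGs, overlapping an exon 15 bp from the start site) had B6 dams, the widest group, at 9.54, 29.3 and 47.1% and SDs of 7.27 to 9.67 points in the other parental groups. Its F1 SD was 4.16 points against 11.8 points in parents. The Pkp4 window (chr2:59068501-59069000, 7 CpGs, 695 bp from the start site of this gene of a cell junction protein) had SDs of 11.6 and 5.35 points. It also differed between the strains, with B6 parents at 24.4 to 42.1% and C3 parents at 34.9 to 77.2%, and a difference of -24 points (adjusted p = 0.00012, limma).

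Several of these windows belonged to genes with more than 1 variable window. Over the annotation 686 protein-coding genes held a variable window, 611 of them 1, 59 of them 2 and 16 of them 3 or more. Eps8l1, which encodes a relative of the actin regulator Eps8 and has a variably methylated IAP named after it, held 6 of its 24 windows in 2 loci, and 4 of the 6 were in the highest 1% by F1 SD. At its named window (chr7:4412501-4413000, 6 CpGs, 184 bp from the start site) B6 sires had 72.3, 51.9 and 73.6% and B6 dams 41.2, 71.6 and 79.7%. The 6 C3 parents lay between 70.3 and 82.0%. At the second locus the same B6 animals stood out on the other side. In the window chr7:4423501-4424000 (17 CpGs) B6 sires had 59.6, 78.9 and 54.6% and B6 dams 75.3, 52.1 and 59.4%, with C3 parents between 34.5 and 51.4%. The B6 animals with the lowest methylation at the first locus, the second sire and the first dam, were thus the highest at the second one, about which no test was made.

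Emx2 and Tmem223 are described by choice after their values were seen. In Emx2, the gene of a homeobox transcription factor, 4 of 13 windows were variable, 1 of them with 5.07 counts per CpG in the thinnest animal, and 0 of the 4 were in the highest 1% by F1 SD. The first C3 dam had 53.8, 55.6, 61.0 and 46.3% in the 4 windows, from left to right. The other 23 animals lay at 40.2% or below in each of them. In Tmem223, 3 of 4 windows were variable. The first B6 dam was the parent farthest from its group mean in all 3, with 23.9, 9.54 and 27.5% against 44.8, 29.3 and 44.8% in the second and 45.0, 47.1 and 46.3% in the third dam.

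Named windows with a high F1 SD were in or near Myo3a, Ccdc40 and Socs5, beside Pln and Cdk5rap1. The Socs5 window (chr17:87524501-87525000, 33 CpGs, intron) is in the gene of a suppressor of cytokine signalling, and had 10.2 points in parents and 14.2 points in F1 animals. B6 sires had 64, 59.5 and 67.4% and C3 parents 58.8 to 71.2%. B6 dams had 51.7, 61.3 and 87.2%, so that 1 of the 12 parents stood above 75%. In the F1 animals B6C3F1 sons had 61.3, 94.6 and 93.2%, B6C3F1 daughters 67.9, 92.7 and 79.2%, C3B6F1 sons 62.2, 70.2 and 55.6%, and C3B6F1 daughters 63.2, 87.9 and 59.3%. Thus 5 F1 animals stood above 75%, and 4 of them were B6C3F1. In F1 animals r was 0.998 between odd and even CpGs and 0.83 between the outermost parts.

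The Ccdc40 window (chr11:119120001-119120500, 11 CpGs, exonic) is in a gene of motile cilia, with the nearest start site that of the lysosomal enzyme gene Gaa. It had 10.3 points in parents and 14.6 points in F1 animals. C3 dams had 28.0, 24.7 and 38.7%, B6 dams 31.9, 57.7 and 51.3%, and C3B6F1 daughters 22.4, 58.1 and 22.3%. B6 sires, at 53.5, 55.3 and 47.3%, were the narrowest group. The window holds 6 SNVs, and both windows beside it were also variable. The Myo3a window (chr2:22444501-22445000, 11 CpGs) lies in an intron of that gene and in the pseudogene Gm13340, and had 10.6 points in parents and 18.5 points in F1 animals. Of the 1407 variable windows it alone held 31-mers of the mitochondrial genome, and 237 of its 470 31-mers occur there. Its counts ran from 388 to 2070 between animals. Divided by each animal's mean depth they differed 4.02-fold. The median of this ratio was 2.04-fold over the variable windows and 1.72-fold over all windows. A ratio over 3-fold was found in 143 variable windows (10.2%), against 1.88% of all windows. In the Myo3a window B6C3F1 daughters had 59.5, 16.9 and 18.1%, and C3B6F1 daughters 64.6, 15.2 and 41.7%. B6C3F1 sons had 43.9, 36.0 and 35.7% and C3B6F1 sons 54.7, 36.7 and 32.1%, a narrower spread than that of the daughters. Over all animals the methylated counts ran from 211 to 363 and the unmethylated counts from 168 to 1721. B6C3F1 daughters had 310, 349 and 355 methylated and 211, 1721 and 1611 unmethylated counts. C3B6F1 daughters had 307, 260 and 242 methylated and 168, 1456 and 338 unmethylated counts. The percentages thus varied mostly with the unmethylated counts, and the source of these counts was not tested. Reads from the nucleus and from mitochondria could not be separated in this window.

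Variable windows were also counted in lists of genes. By construction 0.1% of all windows were variable. Of the 397511 windows of 20 to 80% methylation 1322 were variable, and the lists differed in their part of such windows. Windows in or within 5 kb of 11 genes with a named variably methylated IAP included 9 variable ones of 892 (1.01%), in Cdk5rap1, Eps8l1 and Slc15a2. Neighbouring windows were counted singly, and 6 of the 9 lay in 2 loci of Eps8l1 and 2 in 1 locus of Cdk5rap1. This list is one of gene names, no repeat annotation was used, and whether a window overlaps the IAP was not tested. For 26 imprinted genes the count was 10 of 1573 (0.636%). Windows of 8 hepatocyte genes gave 3 of 296 (1.01%), in Alb, Apob and Tat, and those of 5 endothelial genes 3 of 463 (0.648%), in Kdr and Pecam1. Leukocyte, Kupffer cell, stellate cell and cholangiocyte genes gave 0 of 200, 0 of 132, 0 of 65 and 0 of 72. Of the hepatocyte windows 170 lay at 20 to 80% methylation, against 64, 49, 20 and 19 in these lists in turn. Lists of so few windows cannot show a difference between cell types. Sex-dependent liver genes gave 4 of 869 (0.46%), fasting and feeding genes 2 of 878 (0.228%, both in Pck1, the gluconeogenic enzyme gene), acute phase genes 1 of 388 (0.258%), DNA methylation enzymes 2 of 817 (0.245%, both in Dnmt3a) and clock genes 2 of 1746 (0.115%).

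Within the IAP list the third gene was Slc15a2, which encodes a peptide transporter. Its window (chr16:36770001-36770500, 21 CpGs, intron) had 11.4 points in parents and 14.8 points in F1 animals, at 6.9 counts per CpG in the thinnest animal. With every read in one state over all CpGs, counting alone would give 12.0 points in parents and 12.5 points in F1 animals. The parental SD lay below this value and the F1 SD above it. The median 31-mer of the window occurs 69 times in mm9. B6 sires had 83.5, 65.5 and 79.8%, B6 dams 64.1, 89.0 and 93.3%, C3 sires 71.1, 47.1 and 58.4%, and C3 dams 70.3, 71.3 and 60.7%. B6C3F1 daughters had 62.0, 88.7 and 95.5%, and C3B6F1 daughters 56.2, 72.6 and 29.3%. Sons were closer together, with 57.2, 48.0 and 56.3% in B6C3F1 and 43.2, 57.4 and 45.7% in C3B6F1, so the F1 spread lay mostly in the daughters. B6 parents reached higher values than C3 parents, and both strains overlapped.

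Imprinted genes are methylated on the chromosome from one parent, which gives levels near the middle of the scale. The window of the paternally expressed gene Peg10 and its neighbour Sgce (chr6:4699001-4699500, 23 CpGs) had 13.6 points in parents but 5.69 points in F1 animals. B6 sires had 59.5, 52.9 and 23.3% there and C3 dams 48.4, 68.3 and 32.9%. B6 dams and C3 sires lay between 40.9 and 53.7%, and all 12 F1 animals between 40.2 and 57.7%. The parental spread was thus widest in the B6 sires and the C3 dams. At Gnas, the imprinted gene of a stimulatory G protein subunit (chr2:174125501-174126000, 34 CpGs), the SDs were 10.8 and 4.35 points, with C3 dams, the widest group, at 31.8, 58.6 and 62.7%, SDs of 6.97 to 8.39 points in the other parental groups and F1 animals between 43.0 and 59.3%. The window beside it (chr2:174125001-174125500) was also variable, with 10.1 points in parents and 6.94 points in F1 animals, which lay between 33.6 and 56.2%. Both windows had under 10 counts per CpG in the thinnest animal, 9.26 at Peg10 and 7.94 at Gnas. With every read in one state over all CpGs, counting alone would give parents 12.6 points at Peg10 and 11.5 points at Gnas. For F1 animals it would give 13.2 and 12.2 points. The parental SD was above this value at Peg10 and below it at Gnas, and the F1 SD was below it at both. Whether the spread exceeds that of counting reads was not tested. The other imprinted genes with a variable window were Igf2r, Impact, Meg3, Mest, Plagl1, Slc38a4 and Snrpn, each with 1 window of 8.51 to 9.96 points in parents and 6.80 to 9.56 points in F1 animals. In the thinnest animal Igf2r had 2.6, Meg3 5.37, Snrpn 9.0, Plagl1 9.2 and Impact 9.83 counts per CpG, and Slc38a4 and Mest 10.4 and 20.1.

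Mean methylation of parents and F1 animals was compared next by limma, fitted to all 1407930 windows with the 8 groups as terms. To be called, a window needed 20 points or more between the means besides an adjusted p below 0.05. The choice of windows raised their residual variance, which enters these tests. Between the 12 parents and the 12 F1 animals 2 variable windows (0.142%) were called, both lower in parents, with a background of 0.00234%. The median size of the difference was 2.18 points in the variable windows and 0.757 points over all windows. Both called windows are neighbours in intergenic sequence, 537941 bp or more from Tcfec, the gene of a transcription factor of the MiT family.

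In one of them (chr6:16310001-16310500, 13 CpGs) B6 sires had 45.9, 14.7 and 15.2% and B6 dams 31.2, 46.8 and 58.3%. C3 parents lay between 92.7 and 96.5%, and the 12 F1 animals between 85.8 and 96.7%. The F1 animals thus overlapped with the C3 parents and not with the B6 parents. Parents had 26.9 points less than F1 animals (adjusted p = 4.8e-05, limma) and B6 parents 59.7 points less than C3 parents (adjusted p = 2.8e-12). The other window (chr6:16309501-16310000, 20 CpGs) had B6 parents at 25.4 to 62.1%, C3 parents at 91.0 to 97.7% and F1 animals at 90.8 to 97.7%. In the window that starts at 16310001 the SD was 17.8 points in B6 sires and 0.559 points in C3 dams.

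The comparisons of dams with daughters and of sires with sons use the same animals as that of parents with F1. Between sires and F1 sons 2 variable windows were called, the same pair, with a background of 0.0017%. Between dams and F1 daughters 5 variable windows (0.355%) were called, all lower in dams, with a background of 0.0193%. They lay at the Tcfec pair's first window, in an intron of the calcineurin gene Ppp3ca, 46285 bp from Igfbp1, 2555 bp from the inter-alpha-trypsin inhibitor gene Itih3 and 57524 bp from Myc, and are named because they are few. Without the second B6 dam 2 were called, and without the third C3B6F1 daughter 3.

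The window 46285 bp from the start site of Igfbp1 (chr11:7051001-7051500, 6 CpGs, in an intron of another gene) separated the dams from all other animals. B6 dams had 74.1, 71.2 and 69.5% and C3 dams 64.1, 28.1 and 58.9%. All sires lay between 83.9 and 91.3% and all 12 F1 animals between 83.1 and 90%. The 6 dams thus lay below every other animal, and 1 C3 dam lay far below the other dams. Dams had 26.0 points less than daughters (adjusted p = 2.1e-06, limma). The sex difference itself differed between parents and F1 animals in this 1 variable window (-27.1 points, adjusted p = 0.00083), with a background of 0.0192%. The dams are the animals that had borne pups, and between dams and daughters pregnancy, generation and genotype cannot be told apart.

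At Itih3, Myc and Ppp3ca the groups were closer. At Itih3 (chr14:31739501-31740000, 8 CpGs) dams ranged from 24.8 to 50% and daughters from 56.0 to 70.3%, with sires from 39.3 to 62.9%. At Myc (chr15:61876501-61877000, 5 CpGs) dams ranged from 24 to 58.6% and daughters from 53.2 to 73.6%, which overlap. At Ppp3ca (chr3:136408501-136409000, 7 CpGs) dams ranged from 17.8 to 38.2% and daughters from 40.5 to 56.8%.

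Between B6 and C3 parents 104 variable windows (7.39%) were called, with a background of 0.439% of all windows and 1.46% of windows of 20 to 80% methylation. B6 was higher in 50 and C3 in 54. The following is a description, since these SDs chose the windows. B6 was the more spread strain in 15 of the 50 windows where it was higher, in 25 of the 54 where C3 was higher, and in 590 of all 1407. Median SDs were 12.1 points in C3 and 6.52 points in B6 where B6 was higher, and 10.4 and 8.69 points where C3 was higher. A C3 SD of 3 points or less beside a B6 SD of 9 points or more was found in 25 variable windows, Cdk5rap1 among them, and the reverse in 50.

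F1 animals lay between the parental strains in most of the 104 windows. On a scale where 0 is the B6 mean and 1 the C3 mean, the median position was 0.31 for B6C3F1 and 0.32 for C3B6F1 in windows higher in B6. In windows higher in C3 it was 0.41 for B6C3F1 and 0.53 for C3B6F1. The position of a cross was not tested.

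Between sires and dams 26 variable windows (1.85%) were called, with a background of 0.104% of all windows and 0.349% of windows of 20 to 80% methylation. Dams were higher in 19 and sires in 7. The dams had borne pups, so sex and pregnancy cannot be told apart between sires and dams. In the mean of both crosses the F1 animals, which are other animals, went the same way in all 26, with daughters minus sons as small as -0.528 points in the 7 windows higher in sires. Single crosses went the other way in 3 of those 7. B6C3F1 daughters had 87.8% and sons 86.6% in the window nearest to Igfbp1, C3B6F1 daughters had 66.1% and sons 65.1% in that of Sc5d, and C3B6F1 daughters had 59.9% and sons 58.7% in that of Smoc1. In the 19 windows higher in dams, the median of F1 daughters minus sons was 22.1 points, and in the 7 higher in sires it was -8.56 points. Over all windows called in the same way, daughters were higher in 964 of 966 windows higher in dams, and in 92 of 505 windows higher in sires.

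The widest of these differences were 49454 bp from Barx2, a homeobox gene, and 252517 bp from Epha3, the gene of an ephrin receptor, both chosen by their size. At Barx2 (chr9:31770501-31771000, 5 CpGs) sires lay between 20.6 and 39.1% and dams between 62.9 and 88.4%, and among F1 animals sons lay between 22.4 and 36.2% and daughters between 64.1 and 77.0%. At Epha3 (chr16:64116501-64117000, 5 CpGs) sires ranged from 4.35 to 41.0% and dams from 61.4 to 79.6%. In both windows the sexes did not overlap, and each differed by 44.0 points (adjusted p = 2.7e-09 and 0.00019, limma).

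Of the genes on the list of sex-dependent liver genes, Prlr and Cux2 held a window of this kind, found after the values were seen. At Prlr, the prolactin receptor gene (chr15:10167001-10167500, 5 CpGs, intron), sires ranged from 74.8 to 88.5% and dams from 43.3 to 70.0%. Among F1 animals sons ranged from 70.7 to 85.4% and daughters from 63.9 to 77.2%. At Cux2, the gene of a transcription factor of female mouse liver (chr5:122448501-122449000, 7 CpGs, intron), sires ranged from 51.4 to 71.4% and dams from 28.0 to 51.8%. The thinnest animal had 7.14 counts per CpG in the Cux2 window. Sires were higher by 26.8 points at Prlr (adjusted p = 3.6e-06, limma) and by 23.8 points at Cux2 (adjusted p = 0.00019). The sexes of the parents did not overlap at Prlr and overlapped by less than 1 point at Cux2. F1 sons and virgin daughters overlapped at both. In the parents sex cannot be told apart from having borne pups.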

How the data were processed

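Liver DNA of 24 mice was measured by whole-genome bisulfite sequencing, which reads an unmethylated cytosine as T. The deposited values are, per CpG and animal, read counts in the methylated and in the unmethylated state, which the authors had aligned to mm9, deduplicated, with both strands together, and restricted to 18887127 autosomal CpGs kept in both strains. Per the labels the tools were CASAVA 1.8.2 and Bismark 0.7.8 with Bowtie 0.12.8, and animals were not pooled. The deposited table of strain bases served to count SNVs per window. All count columns were used and 0 others, and the 12 FOXA1 ChIP and input samples were not analysed here.

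Counts were summed in 500-bp tiles without normalization, so depth sets the precision of each percentage. Of 4254058 tiles with a CpG, 1496157 held at least 5, and 1407930 also had 50 counts in each animal. Genes were those of GENCODE vM1 for NCBIM37 (mm9), coordinates are counted from 1, and sequences were read from the same assembly. Copies in mm9 were counted for 3 31-mers at fixed places of each window, and the median of the 3 counts is given. All 470 31-mers of a variable window were looked up in the mitochondrial genome. Group means were compared by limma 3.58.1 (R 4.3.3) on log2((methylated + 1)/(unmethylated + 1)) over all 24 animals, with a trended and robust prior and Benjamini-Hochberg adjustment over all windows, tested on simulated data. Differences are in percentage points. Adjusted p-values and counts called were recomputed with other minimum counts, scales and thresholds, and without each animal. Other values came from Python 3.11.15 with numpy 2.4.6 and scipy 1.17.1. Per the labels each replicate is a separate animal. Same-numbered animals of different groups deviated together with r from -0.092 to 0.108 over 84 pairs. Replicate numbers were not used as pairs, since the labels do not tie them to families.

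The variable windows, the rule for named windows and the gene lists were chosen with earlier results of these data known. Windows within 5 kb formed a locus, named by its window of highest parental SD. Named were the 8 loci of highest parental SD and the 5 of highest F1 SD, both with at least 10 counts per CpG in every animal, up to 3 per direction called between parents and F1, the 5 of highest parental SD within 1 kb of a start site at the same depth, and the 5 of highest parental SD in or within 5 kb of a listed gene.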

Additional observations from a re-analysis of the deposited data

Results flagged for a closer look

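The sex difference at the window chr11:7051001-7051500, 46285 bp from Igfbp1, differed between parents and F1 animals by a test of the difference itself (females minus males in parents, less the same in F1 animals, -27.1 points, adjusted p = 0.00083, limma). Igfbp1 is only the gene with the nearest start site, and the window lies in an intron of another gene. Group means were 90.5% in B6 sires, 71.6% in B6 dams, 86.7% in C3 sires and 50.4% in C3 dams, and 86.2 to 88.5% in the 4 F1 groups. Of the 19 named windows 0 passed this test.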

How the results depend on the processing

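Of the 1407 windows, 427 had at least 100 counts in each animal and 936 at least 10 counts per CpG, and all of these stayed among the most variable 0.1% under those filters (of 1015 and 1323 windows taken), as they must. On the arcsine square root scale 570 of 1407 stayed. Without 1 parent 1014 to 1183 stayed, the fewest without C3_F_3. In the highest 1% by F1 SD, 474 became 443 to 472 without 1 animal, 162 with the 0.1% limit and 884 with the 5% limit. For agreement of CpGs in F1 animals, 880 became 250 when the outermost CpGs were compared, and 875 to 901 without 1 animal. Besides these values and the replicate block below, the settings moved the 3 counts by less than 1.5 times.

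With at least 100 counts the calls were 35 for B6 against C3 (104 before), 8 for sires against dams (26), 1 for dams against daughters (5) and 1 for sires against sons (2), of the 427 windows that remained. With a difference of 10 points they were 252, 54 and 10, and 6 for parents against F1 (2), which had 5 on the arcsine square root scale. Without 1 animal they ran from 102 to 111 for B6 against C3, 22 to 29 for sires against dams, 2 to 7 for dams against daughters, and 2 to 3 for each of parents against F1 and sires against sons. The cause was not tested. As shares of the windows tested, calls with at least 100 counts were 8.20% for B6 against C3 (7.39% before) and 1.87% for sires against dams (1.85%). They were 0.234% for dams against daughters (0.355%), 0.234% for sires against sons (0.142%) and 0.468% for parents against F1 (0.142%). Windows of few counts give less precise percentages.

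With the replicate number as a block, 913 windows stayed in the highest 0.1% and 406 in the highest 1% by F1 SD. The block left 2 calls for parents against F1, 5 for dams against daughters, 2 for sires against sons, 104 for B6 against C3 and 26 for sires against dams. Same-numbered animals of different groups had a median r of 0.010, which cannot show whether a number marks a family. The 6 pairs of son and daughter of one cross and number all had a positive r (0.019 to 0.108, median 0.055). The 168 pairs of different numbers had a median of -0.0055 and ran from -0.117 to 0.150, a range that holds all 6. The labels do not tie a number to a family. The block takes 1 effect per number in common for all groups, whereas a family belongs to 1 cross. The values with the block are therefore not adjusted for families.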
